A study of Homo sapiens with 6 samples.

Results

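The 10 genes described here are regulators of the ATF4 stress response: the transcription factors *ATF4*, *ATF3*, *ATF5*, *DDIT3*, *CEBPB* and *CEBPG*, and the effectors *TRIB3*, *CHAC1*, *DDIT4* and *SESN2*. They were chosen by symbol from the 46427 genes of a read count table, because an earlier look at the same counts had shown that this response varied among the *ZK3*-KO cultures. Each of the 10 symbols matched 1 row, and all 10 were among the 18366 genes that passed the filter on low counts. With counts normalized for library composition, every member was more than 2-fold higher in *ZK3*-KO replicate 3 than the mean of *ZK3*-KO replicates 1 and 2. The difference ran from *ATF4* (1.14 on the log2 scale) to *DDIT3* (4.05), and 10.9% of all tested genes were more than 2-fold higher. With library totals or as TPM, against the arithmetic mean, it held for 9 of the 10 members and not for *ATF4*. Between genotypes none of the 10 passed the test (2.05% of all tested genes did), and the values of the 2 groups overlapped for every member (26.6% of all tested genes had groups that did not overlap).

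The study compared parental HCT116 cells (*ZK3*-WT, 3 cultures) with HCT116 cells that lack ZKSCAN3 (*ZK3*-KO, 3 cultures), in order to find genes that this zinc finger protein controls. HCT116 is an established line from a human colorectal carcinoma. According to the labels CRISPR/Cas9 was aimed at the start codon in exon 1 of *ZKSCAN3*, and both alleles were mutated per the methods. The methods describe puromycin selection, single-cell selection and sequencing of the DNA of each clone. Whether the 3 *ZK3*-KO cultures came from 1 clone is not stated. The parental cells are not described as having gone through that selection. Both groups grew in DMEM with fetal bovine serum, no stress agent is named for either, and stranded libraries of polyadenylated RNA were sequenced as paired reads.

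Between 60827060 and 69739215 reads per library were assigned to genes. The RNA of *ZKSCAN3* itself was measured at 28.1, 23.4 and 19.8 CPM (reads of a gene scaled to the size of the library) in the parental cultures and at 25.4, 24.9 and 13.6 CPM in the knockout cultures, each time for replicate 1, 2 and 3 (log2 fold change -0.16 ± 0.27, FDR = 0.797). *ZK3*-KO replicate 3 stood apart from the other libraries: 20.9% of all tested genes differed over 2-fold from the mean of its 2 group mates, against 3.42% to 12.7% in the other 5 libraries, and the second highest share was that of *ZK3*-KO replicate 2. Its TMM factor, which corrects for the composition of a library, was 0.910, against 0.994 to 1.03 in the others. Of 12 colon epithelial markers 10 passed the filter, with a sum of 3679 to 5340 TPM in 5 libraries and 6249 TPM in *ZK3*-KO replicate 3. *CDX1* was at 0 in all 6, and *VIL1* had at most 7 reads in a library. The sum over 16 markers of other cell types was 28.4 to 46.2 TPM (highest in *ZK3*-KO replicate 3). Among them *COL1A1* was at 11.9 (*ZK3*-KO replicate 2) to 29.1 TPM (*ZK3*-KO replicate 3), and *ACTA2* and *VIM* were present in all 6 libraries. The leukocyte markers *PTPRC* and *CD3E* were at 0 in all 6. What set the libraries apart was not tested.

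ATF4 is a basic leucine zipper (bZIP) factor whose messenger RNA is translated more efficiently when a stress kinase phosphorylates the translation factor eIF2, as happens when amino acids run short or unfolded proteins collect in the endoplasmic reticulum. It pairs with C/EBP proteins on composite C/EBP-ATF elements and switches on genes for amino acid uptake and synthesis, other stress factors and feedback inhibitors. Because ATF4 is controlled to a large part at translation, the level of its RNA is not a measure of its protein, which was not measured here.

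The element that ATF4 and its C/EBP partners bind is shown first. Several members are known as ATF4 targets through such an element, so the choice of the members fixes part of its share among them. The 8-base form TGATGCAA, or its reverse complement TTGCATCA, was searched within 1000 bases on each side of the start of 1 reference transcript per gene in GRCh37. It was found in 7 of the 10 members, with 11 matches in all, against 439 of 13776 tested genes that could be scanned (3.19%). The following lines give 30 bases around a match in 7 members, on the strand of the gene, with the element in capitals and its position in GRCh37.
*ATF3*, 203 bases upstream of the start (chr1:212781900-212781907): cctccccgaacTTGCATCAccagtgccccc
*ATF3*, 21 bases upstream (chr1:212782082-212782089): tataaaaggggTGATGCAAcgctctccaag
*CHAC1*, 209 bases upstream (chr15:41245460-41245467): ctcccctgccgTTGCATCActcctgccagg
*DDIT3*, 306 bases upstream (chr12:57914596-57914603): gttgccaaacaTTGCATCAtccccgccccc
*DDIT4*, 942 bases upstream (chr10:74032736-74032743): gtcctcggtccTGATGCAAccgtctggatc
*CEBPG*, intron, 362 bases downstream (chr19:33864977-33864984): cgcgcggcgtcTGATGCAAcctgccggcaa
*SESN2*, intron, 552 bases downstream (chr1:28586581-28586588): cgggacccgggTTGCATCAactggcagccg
*TRIB3*, exon 1 outside the coding sequence, 132 bases downstream (chr20:361536-361543): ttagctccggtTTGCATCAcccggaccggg

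*TRIB3* held this same 30-base stretch 3 times, at a spacing of 33 bases (again at chr20:361569-361576 and chr20:361602-361609). *DDIT3* had another match in an intron, 819 bases downstream of its start (chr12:57913471-57913478), and its upstream match lies within the annotated span of *MBD6* on the opposite strand. No match was found around *ATF4*, *ATF5* or *CEBPB*, which says only that these 8 letters are not in these windows. A match is a run of letters and not evidence of binding, which was not measured.

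The 250 bases before the start show the setting of the element in 2 members that carry it close to the start. That of *ATF3* (chr1:212781853-212782102, GRCh37, plus strand) holds both of its matches in opposite orientation, 182 bases apart. That of *CHAC1* (chr15:41245419-41245668, plus strand) holds 1.
*ATF3*: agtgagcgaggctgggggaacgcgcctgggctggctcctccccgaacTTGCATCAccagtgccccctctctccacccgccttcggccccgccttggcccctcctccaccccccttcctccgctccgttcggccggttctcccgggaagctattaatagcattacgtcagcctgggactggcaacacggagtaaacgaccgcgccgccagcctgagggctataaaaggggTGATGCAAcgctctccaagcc
*CHAC1*: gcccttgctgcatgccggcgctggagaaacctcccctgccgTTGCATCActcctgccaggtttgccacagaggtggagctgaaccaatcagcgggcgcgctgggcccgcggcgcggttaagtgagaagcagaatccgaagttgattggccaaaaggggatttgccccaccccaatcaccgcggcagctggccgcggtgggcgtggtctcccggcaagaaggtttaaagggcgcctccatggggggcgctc

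**Figure D1:**
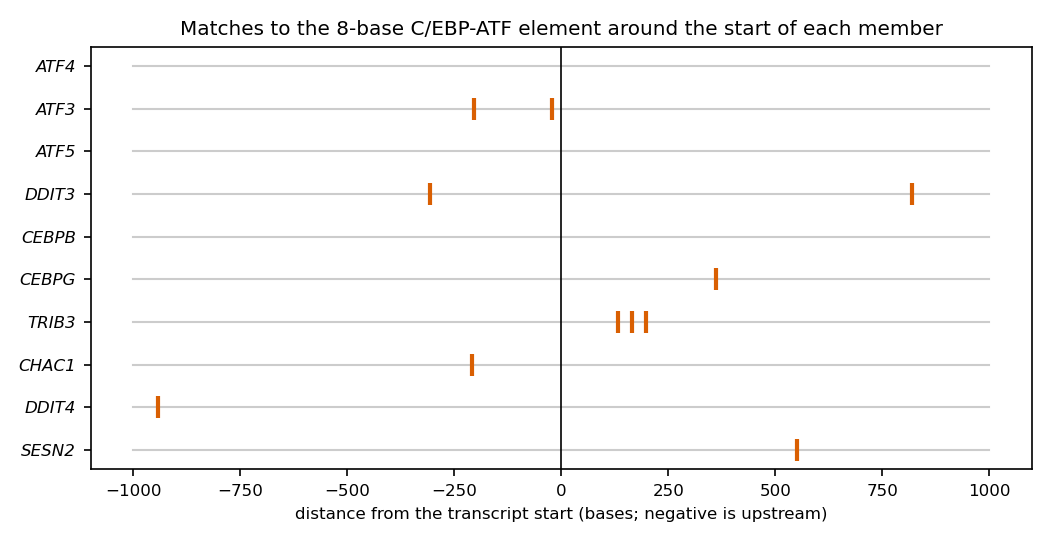
Position of the 8-base C/EBP-ATF element (orange marks) within 1000 bases on each side of the transcript start of each member, in bases, with upstream to the left. The 11 matches lie in 7 members, 5 of them upstream of the start, and the lines of *ATF4*, *ATF5* and *CEBPB* carry none.

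The members were at quite different levels. Per transcript length, as TPM in *ZK3*-WT cells (mean ± SD, n = 3), *DDIT4* (639 ± 210) and *ATF4* (556 ± 130) were highest, followed by *TRIB3* (246 ± 97.2) and *DDIT3* (204 ± 92.3). Lower still were *CEBPG* (102 ± 31.5), *CHAC1* (98.4 ± 43.1), *CEBPB* (70.4 ± 24.3), *ATF3* (64.9 ± 33.6), *SESN2* (54.8 ± 22.7) and *ATF5* (46.6 ± 18.6). Between neighbours in this order, the step from *ATF4* to *TRIB3* was the only one larger than the 2 SDs together. All values below are CPM after TMM normalization, which compare libraries and not genes, unless TPM is named. Where 2 groups are given, the first 3 values belong to *ZK3*-WT replicates 1, 2 and 3 and the last 3 to *ZK3*-KO replicates 1, 2 and 3.

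*ATF4* (chr22:39915700-39918688, GRCh37, plus strand), the factor at the head of the response, was at 594, 653 and 736 CPM in the *ZK3*-WT libraries and at 575, 403 and 1063 CPM in the *ZK3*-KO libraries. The 3 *ZK3*-WT values lay between those of *ZK3*-KO replicates 1 and 3. It varied least of the 10, with a 2.64-fold range over the 6 libraries. In TPM, *ATF4* stood at 552, 427 and 687 in *ZK3*-WT and at 677, 422 and 742 in *ZK3*-KO libraries, so that *ZK3*-WT replicate 2 was below replicate 1 and *ZK3*-KO replicate 1 was close to *ZK3*-WT replicate 3 on that scale.

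*DDIT3* (chr12:57910371-57915520, minus strand) encodes CHOP, a C/EBP-family factor linked to cell death under lasting stress. Its values were 46.4, 106 and 124 CPM in *ZK3*-WT and 32.3, 6.33 and 237 CPM in *ZK3*-KO libraries, or 439 reads in *ZK3*-KO replicate 2 and 14656 in replicate 3. This was the widest range of the members, 37.5-fold, and both ends of it were *ZK3*-KO cultures. *DDIT3* shares positions with *MARS1* and *MBD6* on the opposite strand and with an unnamed protein-coding gene on its own strand, and how reads in such overlaps were counted is not given in the sources used here.

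*ATF3* (chr1:212738676-212794119, plus strand), a bZIP factor that many stresses switch on, was at 26.8, 77.3 and 91.0 CPM in *ZK3*-WT and at 33.8, 15.8 and 101 CPM in *ZK3*-KO libraries. Here *ZK3*-WT replicate 1 was below *ZK3*-KO replicate 1 and above *ZK3*-KO replicate 2. *ATF3* had the widest range among the *ZK3*-WT libraries of any member, 3.39-fold.

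*ATF5* (chr19:50431959-50437192, plus strand), the closest relative of ATF4 and itself translated under eIF2 control, departed from the others. It was at 37.8, 37.5 and 69.4 CPM in *ZK3*-WT and at 46.4, 47.8 and 131 CPM in *ZK3*-KO libraries. *ZK3*-KO replicate 2, which was lowest for the other 9 members, was not lowered for *ATF5*, whose lowest library was *ZK3*-WT replicate 2. *ATF5* overlaps *NUP62* and *IL4I1* on the opposite strand.

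*CEBPB* (chr20:48807367-48809205, plus strand) and *CEBPG* (chr19:33864591-33873592, plus strand) encode bZIP partners of ATF4. *CEBPB* was at 39.0, 64.6 and 80.7 CPM in *ZK3*-WT and at 30.9, 16.5 and 106 CPM in *ZK3*-KO libraries. *CEBPG* was at 119, 206 and 218 CPM in *ZK3*-WT and at 92.7, 58.4 and 249 CPM in *ZK3*-KO libraries. In both genes *ZK3*-KO replicates 1 and 2 lay below all 3 *ZK3*-WT libraries and *ZK3*-KO replicate 3 above them. *CEBPB* overlaps the antisense gene *CEBPB-AS1*.

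*TRIB3* (chr20:343479-378203, plus strand), a pseudokinase that restrains ATF4 and AKT, was at 164, 307 and 379 CPM in *ZK3*-WT and at 133, 50.4 and 464 CPM in *ZK3*-KO libraries. *CHAC1* (chr15:41245160-41248710, plus strand), an enzyme that breaks down glutathione, was at 40.7, 75.0 and 104 CPM in *ZK3*-WT and at 40.6, 5.52 and 170 CPM in *ZK3*-KO libraries. For *CHAC1* the first replicate of the 2 groups was at nearly the same level, while *ZK3*-KO replicates 2 and 3 lay on either side of all other libraries, 30.8-fold apart.

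*DDIT4* (chr10:74033678-74035794, plus strand) encodes REDD1 and *SESN2* (chr1:28586029-28609002, plus strand) encodes sestrin 2, both restraints on the growth kinase complex mTORC1. *DDIT4* was at 372, 492 and 718 CPM in *ZK3*-WT and at 276, 51.3 and 985 CPM in *ZK3*-KO libraries, a 19.2-fold range. *SESN2* was at 51.2, 92.2 and 126 CPM in *ZK3*-WT and at 43.6, 20.8 and 211 CPM in *ZK3*-KO libraries, a 10.2-fold range. As in *CEBPB* and *CEBPG*, the *ZK3*-KO values enclosed those of *ZK3*-WT.

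**Figure D2:**
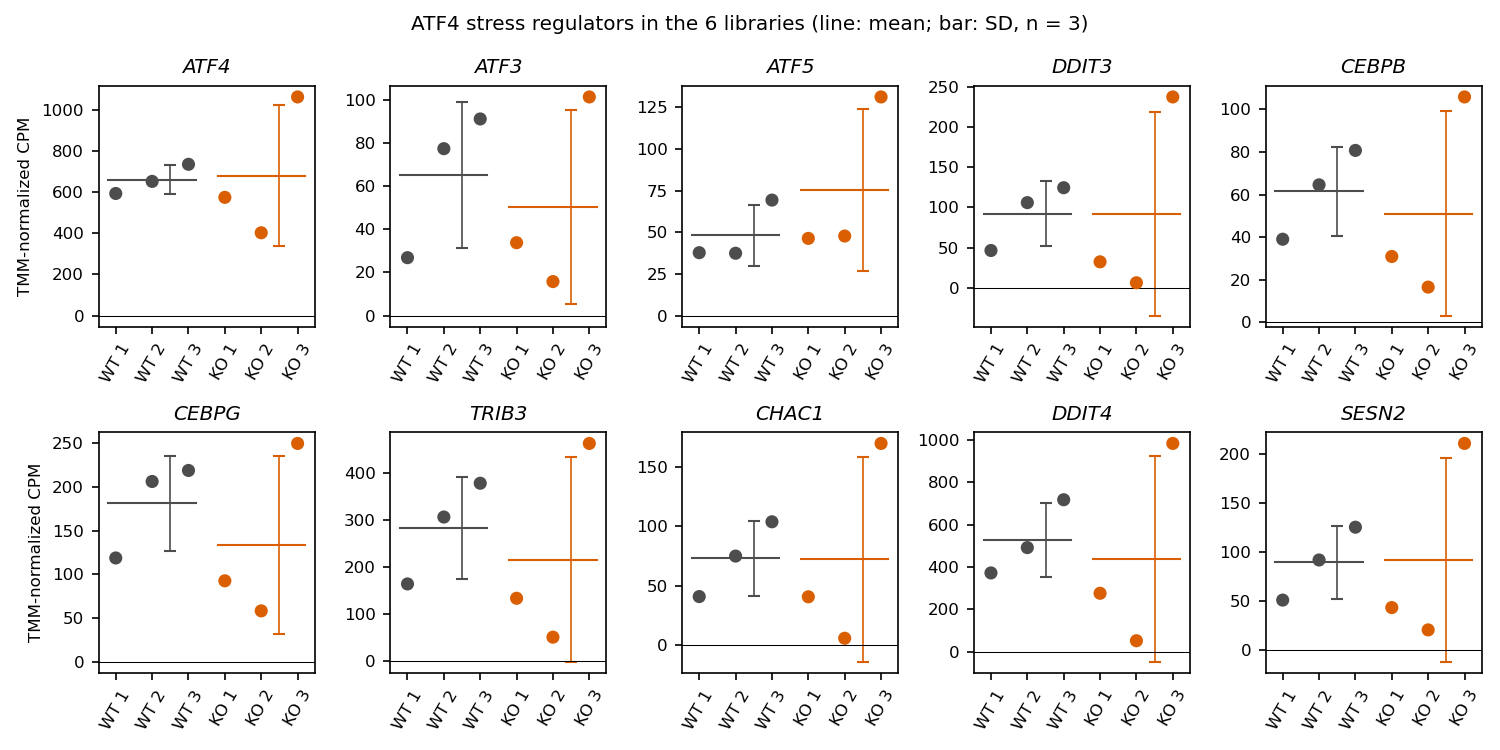
TMM-normalized CPM (linear axes) of each member in the 6 libraries: points are single libraries, grey for *ZK3*-WT and orange for *ZK3*-KO, horizontal lines are group means and vertical bars the SD (n = 3). In all 10 panels the highest point is *ZK3*-KO replicate 3, and in 9 the lowest is *ZK3*-KO replicate 2.

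The 6 libraries fell in 1 order for 8 of the 10 members, with *ZK3*-KO replicate 2 lowest, then *ZK3*-KO replicate 1, *ZK3*-WT replicates 1, 2 and 3, and *ZK3*-KO replicate 3 highest. *ATF3* and *ATF5* were the exceptions. *ZK3*-KO replicate 3 was highest in 10 of 10 members after TMM normalization, in 9 with library totals alone (not *ATF3*) and in 7 as TPM (not *ATF3*, *TRIB3* or *CEBPG*, where *ZK3*-WT replicate 3 was higher). *ZK3*-KO replicate 2 was lowest in 9 members on all 3 scales. The full order held for 8 members with library totals and for 4 as TPM. Because the members were chosen for their spread among *ZK3*-KO cultures, the places of those libraries are in part built into the choice. The share of all tested genes with this order was not counted.

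The parental cultures, whose spread was not a reason for the choice, differed among themselves in the same genes. *ZK3*-WT replicate 3 was above *ZK3*-WT replicate 1 in 10 of 10 members on all 3 scales, from 1.24-fold (*ATF4*) to 3.39-fold (*ATF3*). Against its 2 group mates, the median member was 0.97 lower on the log2 scale in *ZK3*-WT replicate 1, 0.20 higher in replicate 2 and 0.79 higher in replicate 3. The same median was -0.25 in *ZK3*-KO replicate 1, -2.05 in *ZK3*-KO replicate 2 and 2.36 in *ZK3*-KO replicate 3, while the median over all tested genes stayed within 0.02 of 0 in each library. No test was made of these differences between single cultures. Over all tested genes, departures from the group mean in *ZK3*-KO replicate 3 correlated at 0.449 with *ZK3*-WT replicate 3 and -0.334 with *ZK3*-WT replicate 1. A choice on *ZK3*-KO replicate 3 may therefore bear on the order of the *ZK3*-WT libraries too. The share of all tested genes with *ZK3*-WT replicate 3 above replicate 1 was not counted.

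In *ZK3*-KO replicate 3 against the mean of *ZK3*-KO replicates 1 and 2, all 10 members were more than 2-fold higher after TMM normalization. With library totals or as TPM, against the arithmetic mean, 9 were, and *ATF4* fell short. More than 2-fold lower in TMM-normalized CPM were 10.0% of all tested genes and 0 members. The members were chosen on this contrast, so these counts are a description and carry no test. The log2 difference was 4.05 for *DDIT3*, 3.50 for *CHAC1*, 3.05 for *DDIT4*, 2.81 for *SESN2* and 2.50 for *TRIB3*. It was smaller for *CEBPB* (2.23), *ATF3* (2.13), *CEBPG* (1.76), *ATF5* (1.48) and *ATF4* (1.14). The 4 effectors and *DDIT3* thus had the 5 larger differences, and the other factors, with *ATF4* at the end, the 5 smaller ones. Their median was 2.36, against 0.01 over all tested genes. *ZK3*-KO replicates 1 and 2 were also apart: replicate 1 was above replicate 2 in 9 of 10 members, by 1.43-fold (*ATF4*) to 7.34-fold (*CHAC1*), with *ATF5* at 0.971-fold. Against replicate 2 alone the median log2 difference of *ZK3*-KO replicate 3 was 2.94, and against replicate 1 alone it was 1.79.

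**Figure D3:**
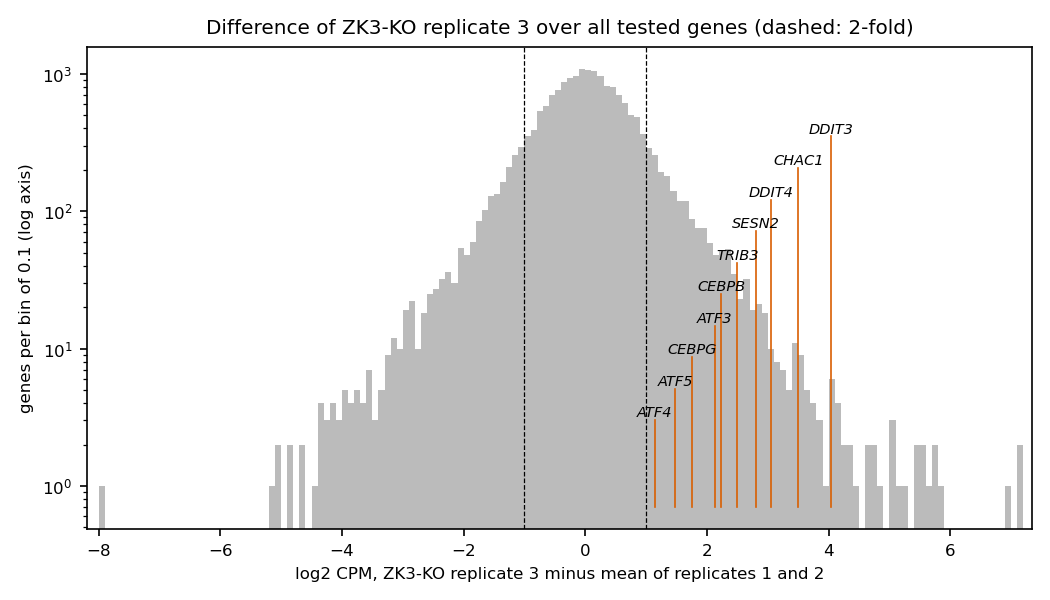
Histogram over the 18366 tested genes of the log2 CPM of *ZK3*-KO replicate 3 minus the mean of replicates 1 and 2 (logarithmic count axis, bins of 0.1 and dashed lines at 2-fold); the orange lines give the members, and their height has no meaning. All 10 lie to the right of the upper dashed line, from 1.14 to 4.05.

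Between genotypes, the fitted log2 fold changes (*ZK3*-KO minus *ZK3*-WT, with SE) were smaller than their errors in every member but *ATF5*. They were 0.04 ± 0.34 for *ATF4*, -0.37 ± 0.69 for *ATF3*, 0.64 ± 0.45 for *ATF5* and -0.00 ± 1.06 for *DDIT3*. For the C/EBP partners they were -0.27 ± 0.63 (*CEBPB*) and -0.44 ± 0.52 (*CEBPG*). For the effectors they were -0.39 ± 0.72 (*TRIB3*), -0.02 ± 0.97 (*CHAC1*), -0.27 ± 0.85 (*DDIT4*) and 0.03 ± 0.78 (*SESN2*). The FDR of edgeR's quasi-likelihood test over all tested genes ran from 0.499 (*ATF5*) to 0.998 (*DDIT3*). Thus 0 of 10 members passed an FDR of 0.05, with 0 members at an unadjusted p under 0.05, where 18.4% of all tested genes were. DESeq2, which called 8.20% of all tested genes, and limma on log2 TPM, which called 2.08%, called 0 members. The median log2 fold change of the members was -0.14, against 0.02 over all tested genes. The members were chosen for their spread among *ZK3*-KO cultures, and such a spread by itself gives a large SE. A high FDR here was therefore built into the choice in part, and an FDR above the threshold does not show that the genotypes had equal levels.

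The comparison turned on *ZK3*-KO replicate 3. Without it, 5 members were called lower in *ZK3*-KO cells, where 15.1% of all tested genes were called in either direction: *DDIT3* (log2 fold change -2.26, FDR = 0.0445), *TRIB3* (-1.62, FDR = 0.0385), *SESN2* (-1.48, FDR = 0.0386), *CEBPB* (-1.37, FDR = 0.0291) and *CEBPG* (-1.26, FDR = 0.0224). *ATF3* (-1.39, FDR = 0.0875), *DDIT4* (-1.69, FDR = 0.0836), *CHAC1* (-1.67, FDR = 0.131), *ATF4* (-0.43, FDR = 0.124) and *ATF5* (-0.03, FDR = 0.951) were not. The choice of the members used that library, so the count is a description too. In 8 of the 10 members *ZK3*-KO replicates 1 and 2 were below all 3 *ZK3*-WT libraries (6 as TPM), a pattern that 26.0% of all tested genes had in CPM. With the replicate number as a block 0 members were called, against 2.51% of all tested genes.

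The profiles of the members over the 6 libraries, each as log2 CPM relative to the *ZK3*-WT mean, were compared by their root mean square distance to the median profile of the 10. That median was -0.65, 0.14 and 0.53 for the parental libraries and -0.90, -1.94 and 0.90 for the *ZK3*-KO libraries. *CEBPB* lay closest to it (0.0610), then *SESN2* (0.182), *TRIB3* (0.203), *ATF3* (0.237) and *CEBPG* (0.238). *DDIT4* (0.571), *CHAC1* (0.712) and *DDIT3* (0.807) were farther away, with lower values than the median in *ZK3*-KO replicate 2. *ATF4* (0.640) had a higher value there, and *ATF5* (0.955) was farthest. The closest pair was *CEBPB* with *CEBPG* (0.186), and *DDIT4* with *CHAC1* (0.251) and *DDIT3* with *CHAC1* (0.290) were close too.

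**Figure D4:**
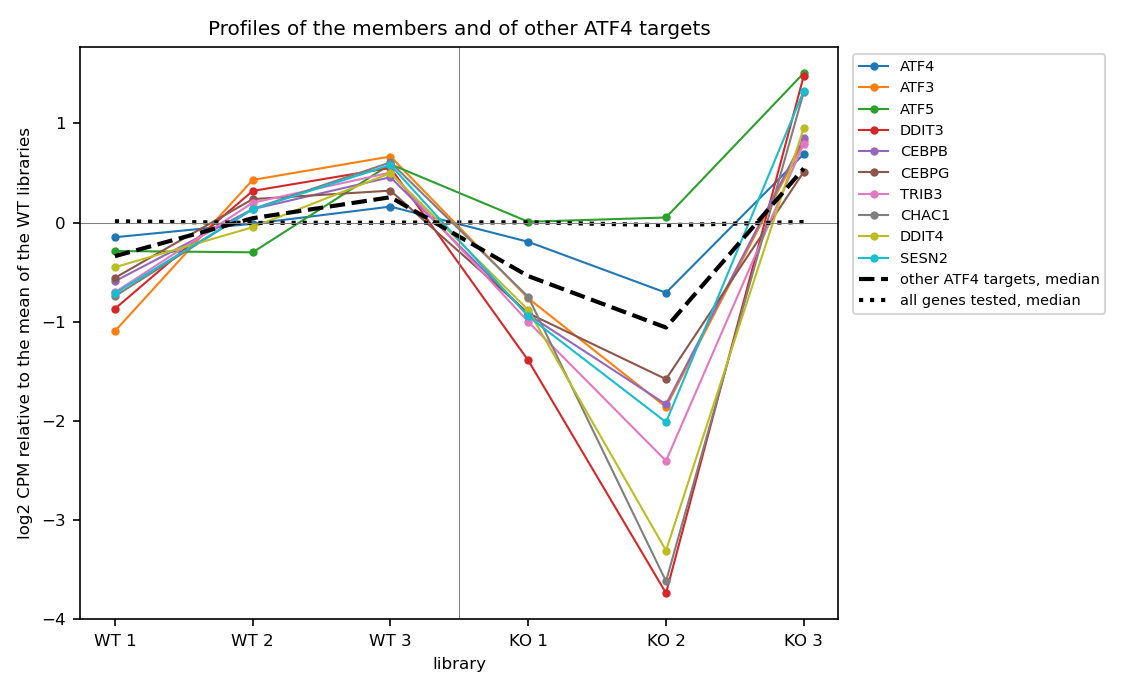
Log2 CPM relative to the mean of the *ZK3*-WT libraries for each member (coloured lines), with the median of other ATF4 targets (dashed) and of all tested genes (dotted); the lines join separate cultures to guide the eye and stand for no order or time. The members dip in *ZK3*-KO replicate 2 (median -1.94) and lie above 0 in *ZK3*-KO replicate 3, while *ATF5* stays near 0 in *ZK3*-KO replicates 1 and 2.

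Of the genes that are no members and have an average log2 CPM of at least 1, the 10 with the profile nearest to the median of the members were at distances of 0.0664 to 0.196. In order they were *CFAP74*, *IER3* (an immediate early gene), *GTPBP2*, *VEGFA* (the angiogenic growth factor), *SSPOP*, *LINC02806*, *BRSK1*, *AKNA*, *MAP1LC3B2* and *LARP6*. *IER3* was at 407, 806 and 1105 CPM in *ZK3*-WT and at 345, 191 and 1186 CPM in *ZK3*-KO libraries. *VEGFA* was at 91.1, 157 and 198 CPM in *ZK3*-WT and at 72.5, 39.2 and 213 CPM in *ZK3*-KO libraries. The nearest genes had the same 2 *ZK3*-KO cultures at the ends of their range, which their choice by profile largely fixed. With 6 points that share libraries these distances are a description only.

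A list of 57 other genes, written down as ATF4 targets from general knowledge, was examined in the same way. Of these 54 were found in the table and 51 passed the filter. Between genotypes 0 of 51 were called by edgeR, against 2.05% of all tested genes (17 were above and 34 below 0, median log2 fold change -0.16). At an unadjusted p under 0.05 in that test were 4, against 18.4% of all tested genes. DESeq2 called 1, *ERO1A*, an oxidase of the endoplasmic reticulum, where it called 8.20% of all tested genes. In *ZK3*-KO replicate 3, 35 of the 51 were more than 2-fold above the mean of *ZK3*-KO replicates 1 and 2 and 0 were more than 2-fold below it. Over all tested genes these shares were 10.9% and 10.0%. The median log2 difference of the targets was 1.41. Relative to the *ZK3*-WT mean, their median was -0.34, 0.04 and 0.26 for the parental libraries and -0.54, -1.06 and 0.55 for the *ZK3*-KO libraries, which places the libraries in the order of the members over a smaller range.

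By function, 10 of 13 enzymes of amino acid metabolism, 6 of 9 amino acid transporters, 4 of 10 aminoacyl-tRNA synthetases and 15 of 19 other targets were more than 2-fold higher in *ZK3*-KO replicate 3, with median log2 differences of 1.17, 1.66, 0.58 and 1.99. Over all tested genes 10.9% were more than 2-fold higher. The largest differences were in *NUPR1*, *FGF21*, *GDF15*, *PPP1R15A*, *MAP1LC3B* and *NIBAN1*. *PPP1R15A*, which encodes the phosphatase subunit GADD34 that reverses eIF2 phosphorylation, was at 72.4, 130 and 211 CPM in *ZK3*-WT and at 57.4, 28.3 and 338 CPM in *ZK3*-KO libraries. *GDF15*, a secreted stress cytokine, was at 230, 445 and 759 CPM in *ZK3*-WT and at 186, 73.1 and 1024 CPM in *ZK3*-KO libraries. *MAP1LC3B*, which encodes the autophagosome protein LC3B, was at 152, 260 and 388 CPM in *ZK3*-WT and at 127, 72.2 and 664 CPM in *ZK3*-KO libraries. These 3 genes had the same highest and lowest library as the members other than *ATF5*. They were named for their large difference in *ZK3*-KO replicate 3, so this is in part built into the choice. *FGF21*, a secreted metabolic hormone, had 0 reads in *ZK3*-KO replicate 2 against 2.04 CPM in replicate 3. *NUPR1*, a small stress-induced nuclear protein, had values of 1.10, 4.09 and 4.46 CPM in the parental libraries and of 0.202, 0.0577 and 3.09 CPM in the *ZK3*-KO libraries, so that its highest library was *ZK3*-WT replicate 3.

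The low end of the 51 tested targets held *KLHL24*, *ALDH18A1*, *EPRS1*, *ERO1A*, *NARS1* and *LARS1*. Their log2 differences between *ZK3*-KO replicate 3 and the other *ZK3*-KO cultures were -0.42, -0.21, -0.19, -0.10, 0.13 and 0.31. *ERO1A* was at 145, 127 and 118 CPM in *ZK3*-WT and at 255, 189 and 205 CPM in *ZK3*-KO libraries, so that its groups did not overlap, with a log2 fold change of 0.74 ± 0.17 (SE) at an FDR of 0.0849 by edgeR. Without *ZK3*-KO replicate 3, 20 of the 51 targets were called lower in *ZK3*-KO cells and 1 higher, beside the 15.1% of all tested genes called in either direction.

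The element was found in 25 of these 51 targets (49.0%). Among them, 68.0% of targets with a match and 69.2% of the 26 without one were more than 2-fold higher in *ZK3*-KO replicate 3. Over all genes that are neither members nor listed targets, 14.3% of 407 genes with a match were more than 2-fold higher and 7.86% more than 2-fold lower. Of the 13334 genes without a match, listed targets included, these shares were 9.05% and 8.82%.

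Other parts of the stress network differed in how far they followed the members. The lists share genes, so their counts are not independent of each other. Over all tested genes, 10.9% were more than 2-fold higher in *ZK3*-KO replicate 3 than the mean of *ZK3*-KO replicates 1 and 2. More than 2-fold lower were 10.0%. Listed ATF4 targets also occur under eIF2 control (*PPP1R15A*), paralogs (*JDP2*), endoplasmic reticulum (*HERPUD1*), p53 (*BBC3*, *TNFRSF10B*) and hypoxia (*VEGFA*). *FOS*, *FOSB*, *JUN* and *JUNB* are in both the list of other bZIP factors and that of immediate early genes. The eIF2 kinases and other genes of eIF2 control (20 of 20 tested) had a median log2 difference of -0.07 in *ZK3*-KO replicate 3, with 1 gene more than 2-fold higher and 1 lower. The 28 genes of mTORC1 and its amino acid sensors, on which DDIT4 and sestrin 2 act, had a median of 0.05, with 0 more than 2-fold apart. Of 21 chaperones and degradation factors of the endoplasmic reticulum 7 were more than 2-fold higher (median 0.75), and their median relative to *ZK3*-WT was 0.64 in *ZK3*-KO replicate 3 but 0.01 in *ZK3*-KO replicate 2, where the members were lowest. Among 29 other bZIP factors 15 were more than 2-fold higher (median 1.03), and among 15 immediate early genes 11 were (median 1.47). The pattern was not limited to stress genes: of the 10 tested colon epithelial markers 6 were more than 2-fold higher and 0 lower (median 1.11), and their median relative to *ZK3*-WT was -0.52 in *ZK3*-KO replicate 2 and 0.60 in *ZK3*-KO replicate 3. The part of these markers in the values of the members was not tested. In 12 tested paralogs of the members, such as *SESN3*, 2 were more than 2-fold higher and 2 lower (median 0.07). Of 22 p53 targets 5 were more than 2-fold higher and 2 lower (median -0.05). Of 16 hypoxia targets 5 were more than 2-fold higher and 1 lower (median 0.23), and their order of libraries was another one, with *ZK3*-WT replicate 1 and *ZK3*-KO replicate 1 highest.

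**Figure D5:**
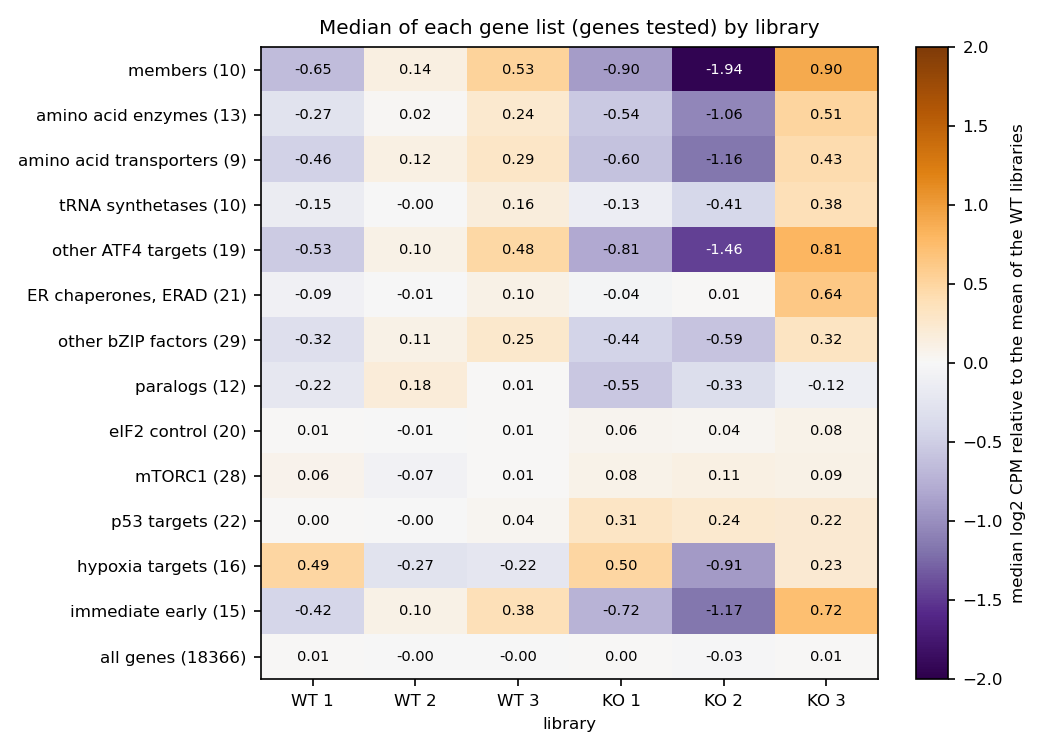
Median log2 CPM relative to the mean of the *ZK3*-WT libraries for each list (number of tested genes in brackets) in each library, with purple below and orange above 0. The lists of ATF4 targets, the immediate early genes and the other bZIP factors share with the members the low value in *ZK3*-KO replicate 2 and the high value in *ZK3*-KO replicate 3, while the values of eIF2 control, mTORC1 and all genes differ from 0 by at most 0.114.

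In these lists together the genotype test called 2 genes higher in *ZK3*-KO cells by edgeR besides *ACTA2*, a smooth muscle actin in the list of other cell types (1.09 ± 0.19, FDR = 0.0387). The 2 are among the 22 tested p53 targets, and *ACTA2* is among 7 tested markers of other cell types. No other list held a call by this test, and over all tested genes 2.05% were called. *BAX*, which opens the mitochondrial outer membrane, was at 35.5, 26.8 and 33.0 CPM in *ZK3*-WT and at 52.6, 60.7 and 57.3 CPM in *ZK3*-KO libraries (log2 fold change 0.84 ± 0.16, FDR = 0.0469, but 0.0584 with the replicate block). *SPATA18* was at 0, 0 and 0.0715 CPM in *ZK3*-WT and at 1.82, 2.02 and 1.00 CPM in *ZK3*-KO libraries (FDR = 0.0253). Of 12 alternatives, 5 kept the call of *ACTA2* (FDR up to 0.184), 2 that of *BAX* (up to 0.230) and 8 that of *SPATA18* (up to 0.140). With the replicate block *SESN3*, a paralog of *SESN2*, was called lower as well (FDR = 0.0432), at 23.8, 26.4 and 15.2 CPM in *ZK3*-WT and at 15.0, 10.0 and 5.63 CPM in *ZK3*-KO libraries. *SESN2* and *SESN3* thus went opposite ways in *ZK3*-KO replicate 3, which held the highest level of the first and the lowest level of the second.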

How the data were processed

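RNA of 3 *ZK3*-WT and 3 *ZK3*-KO cultures of HCT116 cells was sequenced. The authors deposited 1 table of read counts per gene without normalization, with FPKM and TPM values beside them. The deposited FPKM values, scaled by the authors for transcript length and depth, were not used, and the TPM values, scaled by the authors for transcript length to a nearly equal sum, gave levels and 1 alternative. The submitters' processing notes name Bowtie2 2.2.5 and hg19, the paper's methods name Partek Flow and Ensembl transcripts, and the table lists NCBI Gene identifiers. The counting tool and its use of strand are not given in the sources used here.

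Counts were filtered with filterByExpr (18366 genes), normalized by TMM and tested by the quasi-likelihood method of edgeR 4.0.16 in R 4.3.3 with genotype as the only factor and Benjamini-Hochberg adjustment at 0.05. Log2 CPM used a prior count of 2, and the alternative on TPM a pseudocount of 1. The script was tested on simulated counts with known changes. The members, the lists and the rules were chosen with earlier results of these data known. Genes named besides the members are those past the threshold in a list, the targets with the largest and smallest difference in *ZK3*-KO replicate 3, and the 10 nearest profiles. The entries *GARS*, *SARS* and *MARS* of the target list did not match a symbol. Positions and sequences are from GRCh37 with the GENCODE annotation lifted to it, scanned in 1 reference transcript per gene.

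Alternatives were DESeq2 1.42.0, limma 3.58.1 on log2 TPM, library totals, upper-quartile factors, no count filter, a replicate block and each library left out. Same-numbered libraries departed from their group means alike (correlations of 0.294, 0.112 and 0.449 for numbers 1, 2 and 3, across genes), although *ZK3*-WT replicate 1 with *ZK3*-KO replicate 2, at 0.209, was above the second of these. All 3 were over 0.1, and on that ground the numbers served as a block in an alternative fit and not in the main fit. That block was chosen from these same data and not from a stated batch. With only 3 libraries per group the correlations are tied to each other and do not establish a pairing. The paper calls the cultures biological triplicates, and what the numbers mark is not given.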

Additional observations from a re-analysis of the deposited data

How the results depend on the processing

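The number of genes called between genotypes was 376, rose to 1506 with DESeq2 and ran from 49 to 2858 when 1 library was left out, the highest without *ZK3*-KO replicate 3. Among members it was 0 under every alternative other than leaving out libraries, where it ran from 0 to 5, the 5 without *ZK3*-KO replicate 3. Among other ATF4 targets DESeq2 called 1, and the count ran from 0 to 21 with libraries left out. The members' median difference in *ZK3*-KO replicate 3, 2.36, was 1.79 and 2.94 with 1 of the other *ZK3*-KO cultures left out.

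Most fold changes of the members between genotypes changed sign under some alternative, as their errors allow. That of *ATF4* was -0.064 with library totals and -0.070 with the replicate block, and that of *SESN2* was -0.11 with library totals, -0.52 with the replicate block and -0.64 by limma on log2 TPM, a scale on which the median of all genes shifted by -0.127. Library totals shifted that median by -0.082, most of the move of *ATF4* and *SESN2* under that scaling. For *DDIT3* upper-quartile factors gave 0.0011. With 1 library left out, the ranges were -0.43 to 0.31 (*ATF4*), -1.39 to 0.053 (*ATF3*), -0.030 to 1.00 (*ATF5*), -2.26 to 0.55 (*DDIT3*), -1.69 to 0.26 (*DDIT4*), -1.62 to 0.076 (*TRIB3*), -1.67 to 0.52 (*CHAC1*), -1.48 to 0.51 (*SESN2*) and -1.37 to 0.15 (*CEBPB*). *CEBPG* stayed below 0 throughout (-1.26 to -0.08). The replicate block called 461 genes and 0 members, and it changed no other call among the members. Depth limits none of the members: the lowest count was 383 reads (*CHAC1*), so the spread between cultures sets the precision.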
